A study of Mus musculus with 5 samples.

Results

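miR-680 and miR-685 are small RNAs of rodents that were catalogued as miRNAs and whose standing as true miRNAs has been doubted. They were picked from 217 miRNA assays, as 2 members of 217. The rule sought the largest rises on the first day after cardiotoxin injury of mouse muscle. Cardiotoxin, a snake venom peptide that lyses muscle fibres, was injected at 2.5 µM in 100 µl into the anterior compartment below the knee of both hind limbs of C57BL/6J male mice aged 4 to 6 months. The tibialis anterior muscle was taken on day 1, 3, 4, 7 or 21 after the injection, and baseline muscle came from mice of the same strain, sex and age that received no injection, so the effect of an injection without toxin is not part of the comparison. There were 4 mice per time point per the labels, and the files give 4 values per RNA and arm without naming the mouse, so each value was taken as 1 mouse. If some were repeats of the same RNA, the p-values measure only technical spread.

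A miRNA is cut from a hairpin-shaped precursor, loaded into an Argonaute protein and guided to messenger RNAs mainly by its seed, the bases from position 2 to 8. After cardiotoxin the fibres break down within days while blood cells enter the tissue, satellite cells then divide and fuse, and new fibres mature over the following weeks. RNA of a whole muscle is a mixture of all these cells, so fewer cells of a type and less RNA per cell cannot be told apart in any value given here.

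The sequence of miR-680 is shown because it bears on what the assay can report. The RefSeq table for GRCm38.p6 matched 1 of the 2 RNAs, and places the same mature miR-680 of 21 bases in 3 precursors: Mir680-1 at chr6:129691535-129691643 on the plus strand, Mir680-2 at chrX:144297790-144297899 on the plus strand and Mir680-3 at chr12:35194811-35194897 on the minus strand. In the first line below the capitals mark the seed, and in the precursor lines they mark the mature RNA.
miR-680: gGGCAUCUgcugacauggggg
Mir680-1: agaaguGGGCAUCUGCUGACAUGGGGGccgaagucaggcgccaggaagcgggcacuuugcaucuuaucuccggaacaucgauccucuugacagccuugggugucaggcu
Mir680-2: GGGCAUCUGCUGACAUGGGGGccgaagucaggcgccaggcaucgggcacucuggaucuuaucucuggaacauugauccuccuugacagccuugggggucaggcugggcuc
Mir680-3: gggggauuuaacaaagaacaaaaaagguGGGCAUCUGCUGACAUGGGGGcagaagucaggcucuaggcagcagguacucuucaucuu

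Because the mature RNA is identical at the 3 loci, a Ct of miR-680 is the sum over all of them and does not name a locus. The precursors resemble each other beyond the mature part: Mir680-1 and Mir680-2 shared 96 identical positions in a local alignment of 104 columns (92.3%), and Mir680-3 shared 53 of 61 with Mir680-1 (86.9%) and 51 of 59 with Mir680-2 (86.4%). The mature RNA starts at base 7 of Mir680-1, at base 29 of Mir680-3 and at the very first base of Mir680-2. In the fold predicted by RNAfold, with free energies of -34.5, -34.3 and -23.1 kcal/mol for Mir680-1, Mir680-2 and Mir680-3, 18, 14 and 17 of the 21 mature bases were paired, in every case with bases outside the mature RNA. No protein-coding gene of the RefSeq table overlaps any of the 3 precursors. The nearest coding genes on either side are Klrc1 and Klri1, which encode lectin-like receptors of natural killer cells, for Mir680-1, A730046J19Rik and Alg13 for Mir680-2, and Snx13 and Ahr for Mir680-3. The seed GGCAUCU stands in 3 of the 1738 mature entries of the table, all of them miR-680, so no other RNA listed there shares it. The mature RNA has 66.7% G and C, a share that 11.1% of distinct mature sequences reach or exceed.

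Each RNA was quantified with a TaqMan assay, and the value is the threshold cycle (Ct), that is, the cycle at which the product is detected, where 1 cycle less stands for about 2 times as much RNA. A Ct of 35 was the limit of detection, and an RNA counted as detected in an arm with at least 3 of 4 values under it. At baseline miR-680 had Ct values of 30.37, 39.01, 38.73 and 34.77, so 2 values lay beyond the limit and the RNA did not count as detected. On day 1 its values were 24.67, 23.82, 23.47 and 24.06. All 4 values of day 1 lay below all 4 of baseline, and the baseline values spread over 8.64 cycles against 1.20 cycles on day 1.

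miR-685 was detected in every value of every arm. Its baseline Ct values were 28.73, 28.80, 29.99 and 27.63. On day 1 they were 19.41, 19.31, 19.54 and 19.50, a range of 0.23 cycles. Again the 2 arms did not overlap, which in the direction of a lower Ct on day 1 held for 43.3% of the 217 miRNAs. Since day 1 against baseline chose both RNAs, nothing is read from that share and these values are given as a description without a test.

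Changes between arms are in log2 units and were scaled in 2 ways, against the median miRNA (each value set against the median shift of 205 miRNAs detected in every value) and against U6, a spliceosomal RNA that the files mark as the endogenous control. Relative to the median miRNA, miR-680 stood at least 674-fold higher on day 1 than at baseline, and relative to U6 at least 179-fold. These are lower bounds, with baseline values beyond Ct 35 set to 35. The bound depends on the limit chosen: the log2 value of 9.40 became 7.20 with a limit of 32 and 10.90 with a limit of 38, and with no limit the measured difference was 11.33. Without the first baseline value, the one at Ct 30.37, the bound moves from 9.40 to 10.59 on the log2 scale. miR-685 stood 499-fold higher (log2 8.96 ± 0.77, SE, 4 values per arm) relative to the median miRNA and 133-fold higher (7.05 ± 0.65) when scaled to U6. The next in order among miRNAs measured in both arms was miR-200a, of an epithelial family, at 334-fold. miR-147, which did not count as detected at baseline, stood at least 331-fold higher relative to the median miRNA. With no Ct limit its log2 difference was 9.25, above the 8.96 of miR-685.

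**Figure D1:**
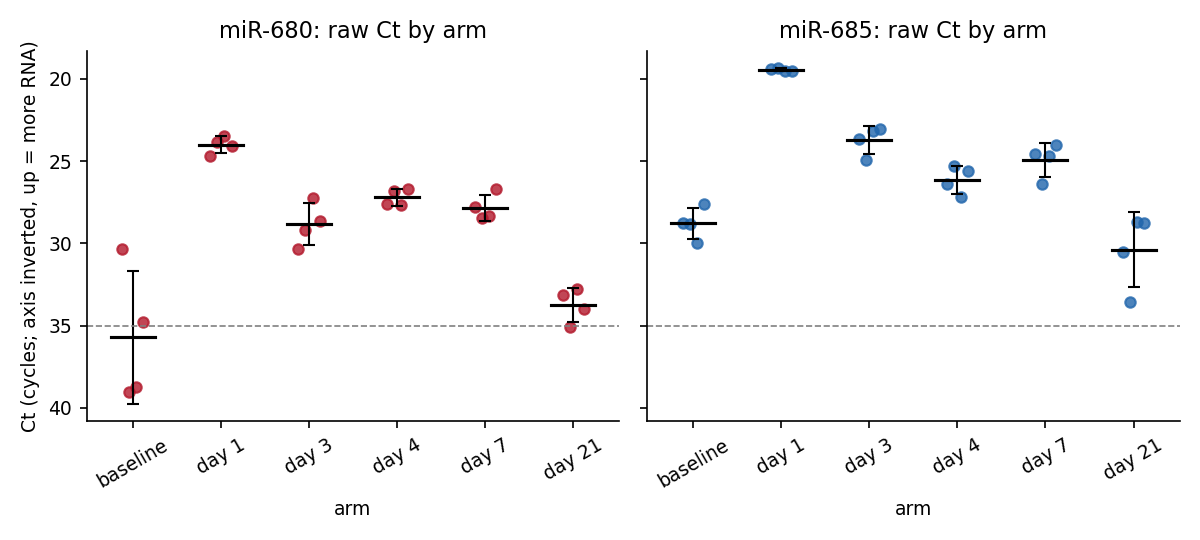
Raw Ct of miR-680 and miR-685 in cycles (vertical axis inverted, so that up means more RNA) in the 6 arms. Points are the 4 values of an arm, the bar their mean with 1 SD, and the dashed line the limit of Ct 35. Both RNAs peak on day 1, and on day 21 the values overlap with those of baseline.

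The peak did not last. miR-680 gave Ct values of 30.31, 29.18, 27.21 and 28.64 on day 3, all of them above every value of day 1. Relative to the median miRNA it held 2.81% of its day 1 level (log2 -5.15 ± 1.21, SE). miR-685 gave 23.65, 24.94, 23.19 and 23.05 on day 3, again without overlap with day 1, and held 4.15% of its day 1 level (-4.59 ± 0.77). Among the 213 miRNAs measured in both arms these were the largest and the second largest decrease from day 1 to day 3. That is a description, since the day 1 values chose the RNAs. Raw Ct values that did not overlap and were higher on day 3 than on day 1 were seen in 29.5% of all miRNAs.

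On day 3 both RNAs were still over baseline, miR-680 by at least 18.9-fold and miR-685 by 20.7-fold relative to the median miRNA, and by at least 8.69-fold and 9.51-fold relative to U6. The miR-680 folds are bounds, so the sizes of the 2 cannot be compared. With no Ct limit the log2 difference of miR-680 was 6.18, against 4.37 for miR-685, and with a limit of 32 its bound was 2.05. Neither overlapped with baseline in raw Ct, as was the case for 46.5% of miRNAs in this direction. For miR-680 the gap was narrow, with a highest day 3 Ct of 30.31 and a lowest baseline Ct of 30.37. After scaling, miR-680 did overlap with baseline. Its first day 3 value was 4.70 over the baseline mean relative to the median miRNA, and the first baseline value 5.57 (log2). Under U6 these were 4.325 and 5.165. The comparison with baseline shares the 4 baseline values with the contrast that chose the RNAs, so it too is described and not tested, here and at the later days.

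From day 3 to day 4 miR-685 fell, while the change of miR-680 did not pass. miR-685 had Ct values of 26.40, 25.31, 27.19 and 25.57 on day 4, all above its 4 values of day 3. It fell 6.26-fold relative to the median miRNA (log2 -2.65 ± 0.77, SE, limma adjusted p = 0.00659) and 4.59-fold relative to U6 (limma adjusted p = 0.01). That was the largest decrease of the 216 miRNAs tested. A change of scaling shifts all miRNAs of a comparison alike, so their order under U6 is no further check. The groups did not overlap in a direction in which 9.22% of miRNAs did not. Only 4 of 216 miRNAs, 1.85%, were lower on day 4 than on day 3 under both scalings. The others were miR-223 of myeloid cells at -1.59, miR-682 at -1.64 and miR-135a at -1.91 relative to the median miRNA, named here after their values were seen.

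miR-680 had Ct values of 27.63, 26.83, 27.65 and 26.67 on day 4, which overlap with those of day 3 through a single day 3 value, the one at Ct 27.21. Its change from day 3 was 1.40 ± 1.21 relative to the median miRNA (limma adjusted p = 0.348) and 1.85 relative to U6 (limma adjusted p = 0.192), so it did not pass. The standard error takes in the wide spread of its baseline values. In a fit of days 3, 4, 7 and 21 alone, added after the data were seen, the same change of 1.40 passed (limma adjusted p = 0.0435). That fit was run relative to the median miRNA only. Across all miRNAs 21.3% were higher on day 4 under both scalings.

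The difference of the 2 RNAs in the same value position needs no normalizer, if the files list the mice in the same order for every assay, which was assumed. The mean difference does not depend on that order, while its spread and the permutation p do. The Ct of miR-680 minus that of miR-685 was 6.66, 4.24, 4.02 and 5.59 cycles on day 3 and 1.23, 1.52, 0.46 and 1.10 on day 4. The 2 arms did not overlap, and the ratio of miR-680 to miR-685 rose 16.6-fold (log2 4.05; two-sided exact permutation p = 0.0286, the smallest that 4 against 4 values allow, and 0.0429 adjusted over 6 comparisons). The same difference in the limma fit had an SE of 1.18 and an adjusted p of 0.0158. On day 1, which the choice of RNAs used, the differences were 5.26, 4.51, 3.93 and 4.56 cycles. They overlapped with those of day 3.

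**Figure D2:**
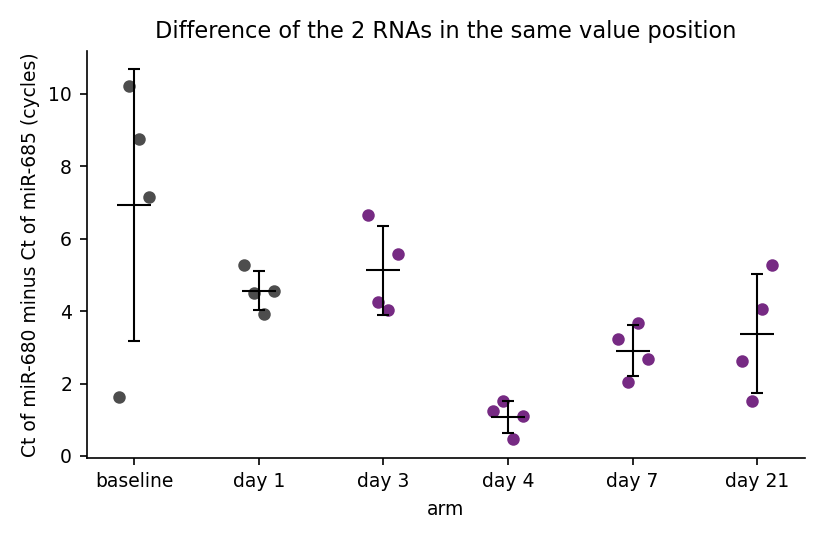
Ct of miR-680 minus Ct of miR-685 in cycles, by arm, with points for the 4 value positions and the mean with 1 SD. Grey points mark the arms that chose the RNAs. The day 4 points, between 0.46 and 1.52 cycles, lie below all points of days 1, 3, 7 and 21.

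On day 7 both RNAs were still above baseline. miR-680 had Ct values of 27.80, 28.45, 28.36 and 26.72, and miR-685 had 24.56, 26.40, 24.69 and 24.04. Neither change from day 4 passed. For miR-680 it was -0.89 ± 1.21 (limma adjusted p = 0.567), and for miR-685 it was 0.95 ± 0.77 (limma adjusted p = 0.318; 1.53 and 0.0955 relative to U6). In that comparison 16.1% of miRNAs were higher and 0.922% lower under both scalings. The ratio of miR-680 to miR-685, however, fell by 1.83 on the log2 scale, with a difference of 3.24, 2.05, 3.67 and 2.68 cycles on day 7. The 4 values of day 7 all lay above those of day 4 (two-sided exact permutation p = 0.0286, adjusted 0.0429). The limma fit with all 6 arms did not call this change (SE 1.18, adjusted p = 0.186).

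Against day 3 the day 7 values overlapped for both RNAs. miR-680 differed by 0.52 ± 1.21 (limma adjusted p = 0.713) and miR-685 by -1.70 ± 0.77 (limma adjusted p = 0.0556, and 0.412 relative to U6), so neither passed, where 31.9% of miRNAs were higher and 3.70% lower under both scalings. The ratio of miR-680 to miR-685 was 4.65-fold higher on day 7 than on day 3 (log2 2.22; two-sided exact permutation p = 0.0286, adjusted 0.0429), again without a call in the limma fit with all 6 arms (adjusted p = 0.151). Relative to the median miRNA, miR-680 stood at least 50.1-fold over baseline on day 4 and at least 27.1-fold on day 7. miR-685 stood 3.31-fold over baseline on day 4 and 6.38-fold on day 7. All raw values of both RNAs on these days were below those of baseline, as for 55.3% of miRNAs on day 4 and 58.1% on day 7. After scaling, miR-685 on day 4 did overlap with baseline. Its lowest day 4 value was 0.82 over the baseline mean relative to the median miRNA, and its highest baseline value 0.89 (log2). Under U6 these were 0.53 and 0.92. The day 4 level of miR-685 over baseline depended on the scaling, with a log2 change of 1.73 under the median miRNA, 1.05 under U6 and 0.20 relative to the small nucleolar RNA snoRNA135.

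**Figure D3:**
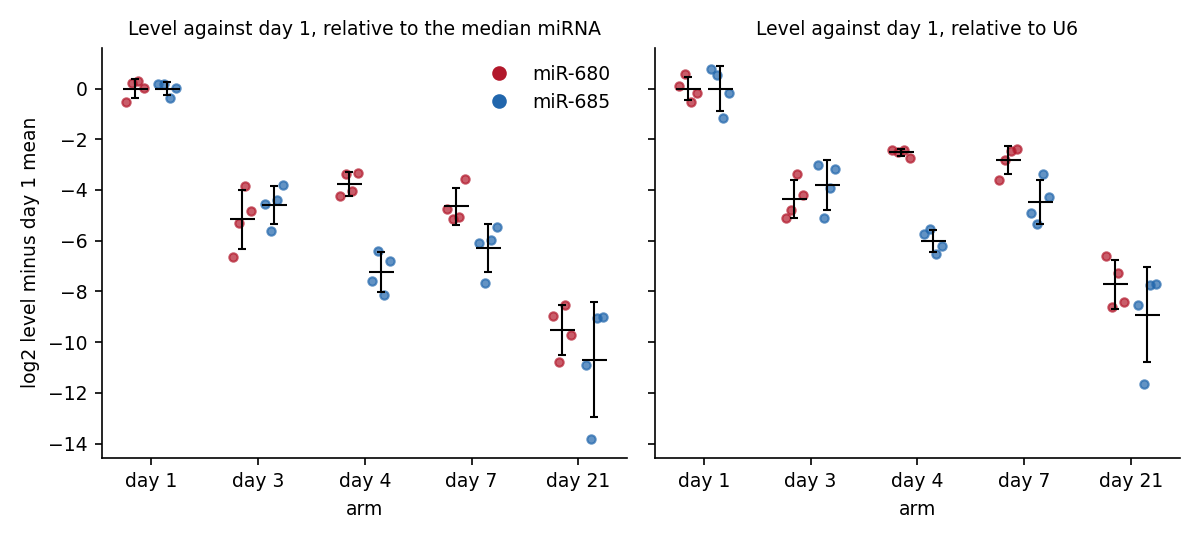
Log2 level of miR-680 (red) and miR-685 (blue) minus the day 1 mean of the same RNA, relative to the median miRNA on the left and to U6 on the right. Points are the 4 values of an arm and bars the mean with 1 SD. On the left the day 4 means stand at -3.75 for miR-680 and -7.24 for miR-685.

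By day 21 both RNAs had fallen from their day 7 levels, and both overlapped with uninjected muscle. miR-680 gave Ct values of 33.13, 35.09, 32.79 and 34.01, of which 3 were under the limit, and every value was above those of day 7. It fell 29.4-fold from day 7 relative to the median miRNA (log2 -4.88 ± 1.21, limma adjusted p = 0.00125) and changed by -4.91 on the log2 scale under U6 (limma adjusted p = 0.000224). Its values lie within the range of the baseline values, from 30.37 to 39.01. No fold against baseline is given, because with the limit of Ct 35 the bound does not exceed 1. On the log2 scale it was -0.12, and from -0.51 to 1.09 with 1 value left out. With a limit of 38 it was 1.38, and with no limit the measured difference was 1.82.

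miR-685 gave Ct values of 30.50, 33.56, 28.72 and 28.73 on day 21. All lay above those of day 7, and it fell 21.3-fold (-4.41 ± 0.77, limma adjusted p = 4.11e-05; 21.7-fold and limma adjusted p = 4.98e-06 relative to U6). The SE is shared by all 6 arms, while the SD of miR-685 was 2.26 on day 21 and 0.25 on day 1. With only the arms compared in the fit, the limma adjusted p was 0.00528 from day 7, 0.000376 from day 3 and 0.0124 from day 4. The second value of day 21, at Ct 33.56, was the highest, and without it the change was -3.38 from day 7, -5.08 from day 3 and -2.44 from day 4. The third and the fourth value lay within the baseline range of 27.63 to 29.99 and the others above it. The day 21 level was -1.74 ± 0.77 against baseline under the median miRNA, -1.86 under U6 and -0.67 relative to the small cytoplasmic RNA Y1, and -0.69 under the median miRNA without the second value. That is given without a test for the reason above.

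Both RNAs were thus lower on day 21 than on day 7 under both scalings, as were 14.4% of all 216 miRNAs tested. In order of decrease they ranked 3 and 4. Under both scalings, 19.4% of miRNAs were higher. In raw Ct, 65.4% of miRNAs were higher without overlap on day 21. Against day 3, the log2 change was -4.36 ± 1.21 for miR-680 (limma adjusted p = 0.00248) and -6.11 ± 0.77 for miR-685 (limma adjusted p = 2.65e-07). Of all miRNAs 14.9% were lower and 47.4% higher under both scalings, and 43.3% had higher raw Ct without overlap. Against day 4 the changes were -5.77 ± 1.21 (limma adjusted p = 0.000204) and -3.46 ± 0.77 (limma adjusted p = 0.000365). There 16.2% of miRNAs were lower and 42.1% higher under both, and 49.3% had higher raw Ct without overlap. Both members passed under U6 too in each of these comparisons.

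The ratio between the 2 RNAs was less even on day 21. Their difference was 2.63, 1.53, 4.07 and 5.28 cycles. Between day 7 and day 21 the ratio of miR-680 to miR-685 changed by -0.47 on the log2 scale with an SE of 1.18 (two-sided exact permutation p = 0.686), an error that leaves room for a difference of several fold. Between day 4 and day 21 it changed by -2.30 (two-sided exact permutation p = 0.0286, adjusted 0.0429; limma adjusted p = 0.151), and by -1.67 without the fourth value of day 21 or -2.92 without the second. Between day 3 and day 21 the change was 1.75 (two-sided exact permutation p = 0.143, adjusted 0.171). Of 6 comparisons of the ratio, 4 passed the exact test and 1 of these, day 4 against day 3, also passed in the limma fit with all 6 arms. These 4 tie at the smallest p possible, pass the adjustment only through that tie, and are not independent, since arms recur among them. Day 4 and day 21 were barely apart, with a highest difference of 1.52 cycles on day 4 and a lowest of 1.53 on day 21.

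**Figure D4:**
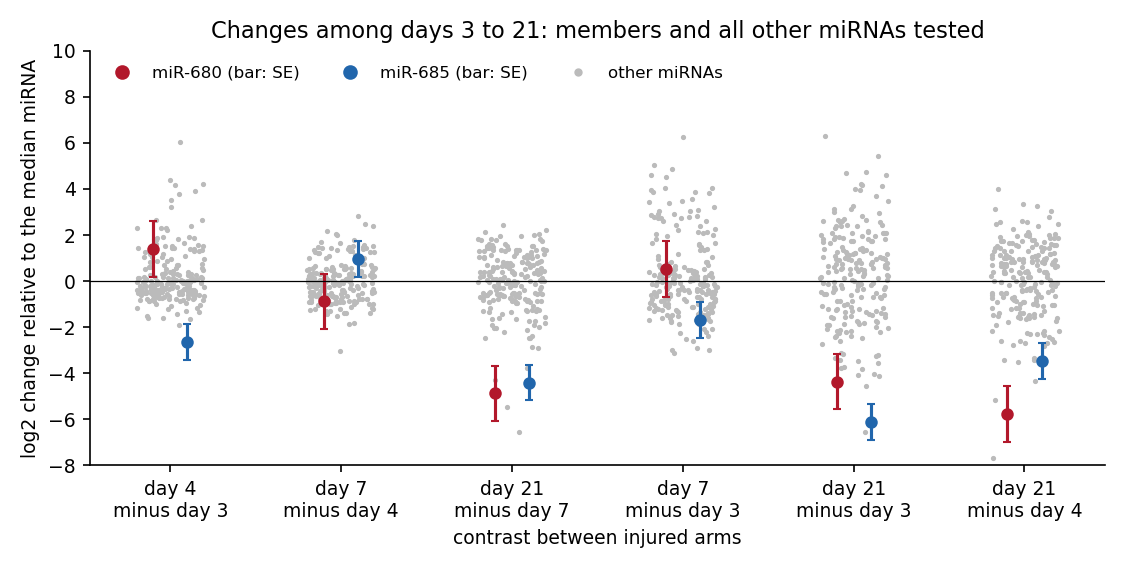
Log2 change relative to the median miRNA in the 6 comparisons among days 3, 4, 7 and 21, with miR-680 in red and miR-685 in blue (bar: SE) and every other miRNA tested in grey. miR-685 has the lowest value from day 3 to day 4, and both lie near the lower end in the 3 comparisons with day 21.

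The balance of calls over all miRNAs depended on the scaling. The share of calls that were higher was 47.9% from day 3 to day 4 under the median miRNA and 92.0% under U6, 48.1% and 95.0% from day 4 to day 7, and 54.2% and 58.1% from day 7 to day 21. It was 45.4% and 92.1% for day 7 against day 3, 55.7% and 78.4% for day 21 against day 3, and 56.1% and 73.3% for day 21 against day 4. Over all scalings and raw Ct the share ran from 9.49%, in raw Ct from day 7 to day 21, to 96.4%, relative to Y1 from day 4 to day 7. Relative to Y1 it was 11.7% from day 3 to day 4. The median of all miRNAs from day 3 to day 4 was -0.11 under the median miRNA, 0.34 under U6 and -1.13 relative to Y1. Mean Ct of U6 ran from 12.5 on day 1 to 14.8 at baseline, and that of Y1 from 19.7 on day 4 to 22.7 on day 1. Each change of miR-680 and miR-685 among days 3 to 21 kept its sign under every one of these scalings.

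The values of both RNAs scattered more than those of most assays in every arm, except those of miR-685 on day 1. With each value scaled to the median miRNA, the SD of miR-680 was 4.12 at baseline, second largest of 217, and 1.16 on day 3, rank 3. The SD of miR-685 was 0.76 on day 3, 0.78 on day 4, 0.96 on day 7 and 2.26 on day 21, ranks 9, 6, 6 and 3 of 217, where the median SD of all miRNAs lay between 0.21 and 0.26. On day 1 the SDs of 0.37 for miR-680 and 0.25 for miR-685 ranked 75 and 127, with a median of 0.28. Scatter can depend on Ct, so both were also set beside the miRNAs within 1 cycle of their mean Ct in the same arm. For miR-685, on day 3 none of 33 such miRNAs had a larger SD, on day 4 and day 7 this held for 2 of 27 and 2 of 30, on day 21 for none of 12, at baseline for 4 of 22 and on day 1 for 14 of 25. For miR-680 a larger SD was seen in 1 of 20 on day 3, 2 of 21 on day 7, 8 of 28 on day 4 and 9 of 32 on day 1. Only 2 miRNAs lay that near to it at baseline and on day 21, with 0 of 2 and 2 of 2 larger.

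The miRNAs whose course was most like that of miR-680 over the 6 arm means, by the root mean square difference of centred log2 profiles, were miR-200a at 1.33, miR-429 at 1.36, miR-685 itself at 1.42, miR-147 at 1.48 and miR-467c at 1.5. For miR-685 they were miR-223 at 1.41, miR-680 at 1.42, miR-429 at 1.52, miR-200c at 1.68 and miR-141 at 1.75. miR-223 is abundant in neutrophils and other myeloid cells, miR-147 is made by macrophages on toll-like receptor signalling, and miR-200a, miR-200c, miR-141 and miR-429 form an epithelial family. These arms include those that chose the RNAs, so the likeness is a description. Each profile shares the 6 arms and the same scaling. Values beyond the limit of detection were set to that limit before the arm means were taken. At baseline this raised the levels of miR-680, miR-429, miR-147 and miR-200a, so part of their likeness can come from the limit. The likeness without the limit was not tested.

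**Figure D5:**
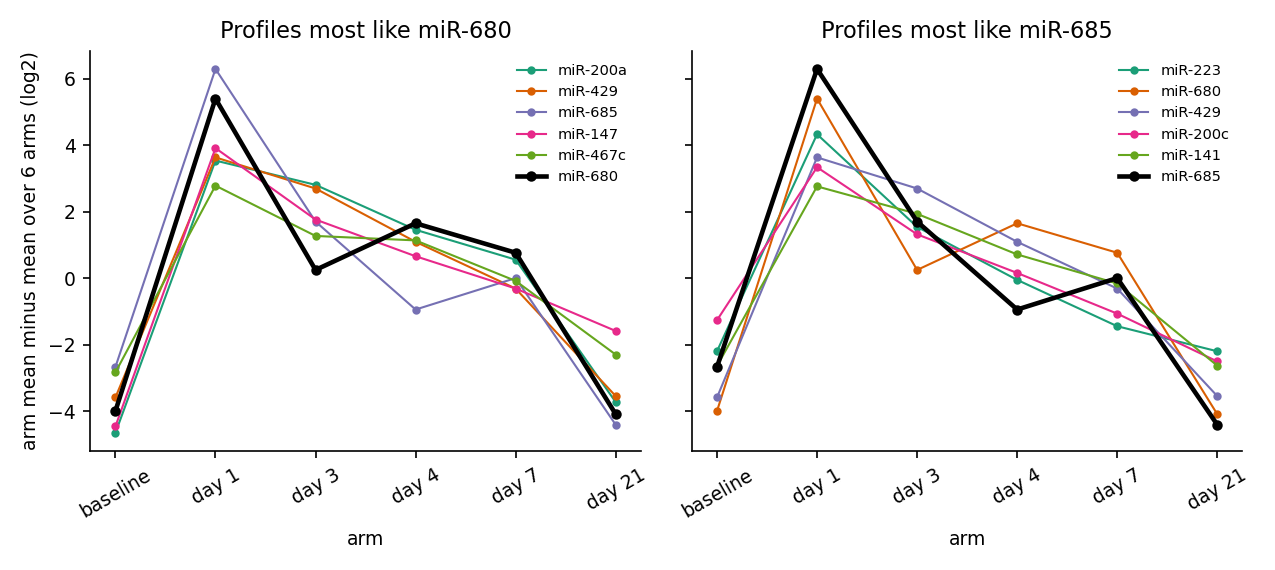
Arm means on the log2 scale, each profile minus its own mean over the 6 arms, for miR-680 (left) and miR-685 (right) in black and the 5 miRNAs most like each in colour. Values beyond the limit of detection were set to that limit, which raises the baseline point of miR-680. Only miR-685 among those on the left drops below 0 on day 4, and the black line on the left dips on day 3 and is higher on day 4.

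In the centred profiles miR-200a stood at 3.54 on day 1, 2.81 on day 3 and 1.46 on day 4, while miR-680 stood at 5.40, 0.25 and 1.65. miR-223 was 92.1-fold, 13.4-fold, 4.43-fold and 1.68-fold over baseline on days 1, 3, 4 and 7, while miR-685 was 499-fold, 20.7-fold, 3.31-fold and 6.38-fold. From day 3 to day 4 miR-223 also passed under both scalings, at -1.59 ± 0.12 (limma adjusted p = 5.94e-10, and 0.0462 relative to U6). From day 7 to day 21 it was at -0.75 ± 0.12, which passed under the median miRNA (limma adjusted p = 1.07e-05) but not under U6 (limma adjusted p = 0.147).

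Marker miRNAs of other cell types differed between the arms too. All 10 miRNAs of a myeloid and lymphoid list were measured, and their summed level relative to the median miRNA lay between 3.46 and 3.68 over the baseline mean (log2) on day 1, between 1.41 and 1.55 on day 3, between 0.39 and 0.60 on day 4, and between -0.12 and 0.07 on day 7. The sum is weighted towards abundant members such as miR-223, with a mean Ct of 11.8 on day 1. List medians against baseline cover 9 of the 10, without miR-147, which did not count as detected at baseline. The list median on day 1 was 1.43 under the median miRNA and -0.48 under U6, against -0.04 and -1.95 for all miRNAs. On day 7 this sum was near baseline, when miR-680 and miR-685 were still above it, but the members of the list differed. The list median on day 7 was 0.75 over baseline under the median miRNA and 0.66 under U6, against 0.065 and -0.03 for all miRNAs. Relative to the median miRNA, miR-142-5p stood at 2.11 and miR-150, with a mean Ct of 16.45 at baseline, at -2.10. From day 3 to day 4, 1 of the 10 (miR-223) was lower and 0 were higher under both scalings, with a list median of -0.67 against -0.11 for all miRNAs. From day 7 to day 21, 1 was lower and 1 higher under both. Their part in the values of miR-680 and miR-685 was not tested.

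The epithelial list had 6 of 7 miRNAs measured, and its summed level, between 0.48 and 0.78 over baseline on day 1, lay between -1.20 and -0.36 on day 4. The sum is weighted towards miR-203, its most abundant member at baseline, with a mean Ct of 21.9 at baseline and a log2 difference of -1.17 on day 4. The list median on day 4, over the 5 miRNAs detected in both arms, was 2.51 over baseline. It leaves out miR-429, which did not count as detected at baseline and stood at least 4.68 over it. miR-200a, miR-141, miR-200b and miR-200c stood at 6.30, 3.36, 2.51 and 1.42. From day 7 to day 21, 4 of its 5 tested miRNAs were lower and 1 higher under both scalings, beside 14.4% and 19.4% of all miRNAs. The muscle fibre list had 5 of 7 measured. Its summed level lay between -4.18 and -2.30 on day 1, between -6.59 and -4.25 on day 3 and between -1.51 and -1.10 on day 21. From day 3 to day 4 all 4 tested fibre miRNAs rose under both scalings, beside 21.3% of all miRNAs. miR-133a and miR-1, which are abundant in skeletal and heart muscle, had mean Ct values of 9.35 and 12.9 at baseline in the labelled tissue. The part of these lists was not tested either.

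Other miRNAs catalogued in the same number range were looked at beside the members. The panel held 9 of them from miR-667 to miR-708. From day 3 to day 4, 2 were higher and 1 was lower under both scalings, and the list median was -0.30 against -0.11 for all miRNAs. From day 7 to day 21, 1 was higher and 0 were lower under both scalings, with a median of -0.52 against 0.05. miR-682 was the lower one from day 3 to day 4 (-1.64 ± 0.27, limma adjusted p = 2.84e-05, and 0.0333 relative to U6), and did not pass from day 7 to day 21 (-0.51 ± 0.27, limma adjusted p = 0.0929). miR-675-3p, whose precursor lies in the H19 transcript, rose from day 3 to day 4 by 4.18 ± 0.33 (limma adjusted p = 4.83e-09), the opposite direction to miR-685.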

How the data were processed

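Per the labels' protocols, RNA came from a miRNeasy extraction with integrity numbers above 9, and the PCR had 40 cycles. The deposited values are raw Ct, a score per assay and value as the authors exported it, with no normalization per the file headers. The threshold setting is not stated in what was read here. The 4 values per arm limit the precision. Each of 5 files lists 217 miRNA assays and 5 control RNAs with 4 values each for baseline and 1 time point. The baseline values were identical in all files and were used once.

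Values were turned into minus Ct relative to the median miRNA (main) or U6. Values at cycle 40 were left out of the fit. All 6 arms entered 1 fit with limma 3.58.1 (lmFit, eBayes) in R 4.3.3. P-values were two-sided and adjusted by Benjamini-Hochberg over all miRNAs detected in both arms, with a threshold of 0.05. "Rose" and "fell" are used where both scalings passed. Only comparisons among days 3, 4, 7 and 21 were tested, since baseline and day 1 chose the members. The ratio of the members was tested by exact permutation in scipy 1.17.1. Sequences are from RefSeq (GRCm38.p6), aligned with Biopython 1.88 and folded with RNAfold 2.7.2. The fit was tested on simulated data in which each miRNA had the same spread in every arm. That does not check it for the unequal spreads of the members.

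The members, lists and rules were chosen with earlier results of these data known. Named miRNAs were the members, the control RNAs, the 5 most similar profiles per member and a few marker miRNAs. The lists were muscle fibre, myeloid and lymphoid, red cell (miR-451 alone measured), epithelium, endothelium, and miRNAs numbered 667 to 720. From day 3 to day 4, neither miR-451 (-1.04 under the median miRNA) nor any of 2 endothelial miRNAs (median -0.70) passed under both scalings. Alternatives were the other control RNAs, raw Ct, Ct limits of 32, 38 and none, cycle 40 kept, limma-trend, fewer arms and each value left out.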

Additional observations from a re-analysis of the deposited data

How the results depend on the processing

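No paired analysis was possible because neither files nor labels give replicate numbers shared between arms. Of the member comparisons among days 3 to 21, all changes that passed did so under every alternative that could be run. With a Ct limit of 32, miR-680 on day 21 gives no value. miR-680 from day 3 to day 4 also passed with only the arms compared or only days 3, 4, 7 and 21 in the fit (1.40 in both, limma adjusted p = 0.0401 and 0.0435; 0.251 to 0.615 with a value left out). miR-685 passed from day 4 to day 7 relative to Y1 (1.75), and from day 3 to day 7 relative to Y1 (-1.92), with limma-trend and with only the arms compared (-1.70 in both).

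With 1 value left out, miR-680 ranged from 0.91 to 1.84 for day 4 against day 3, -1.24 to -0.71 for day 7 against day 4, -5.20 to -4.46 for day 21 against day 7, 0.02 to 0.95 for day 7 against day 3, -4.85 to -3.93 for day 21 against day 3 and -6.09 to -5.35 for day 21 against day 4. miR-685 ranged from -2.99 to -2.36, 0.64 to 1.41, -4.97 to -3.38, -2.05 to -1.24, -6.67 to -5.08 and -4.03 to -2.44 in the same order. Its change from day 3 to day 7 passed without the second value of day 3 (-2.05) or the fourth of day 7 (-1.98).

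For the ratio of miR-680 to miR-685, the ranges with 1 value left out were 3.54 to 4.42, -2.12 to -1.58, -1.08 to 0.17, 1.71 to 2.59, 1.13 to 2.38 and -2.92 to -1.67 in that order. No exact test can pass there, since 4 against 3 values give no p below 0.0571. The sign from day 7 to day 21 turned without the fourth value of day 21 (0.17). In the limma fit with all 6 arms the ratio was not called for day 7 against day 4 (-1.83), day 7 against day 3 (2.22) and day 21 against day 4 (-2.30). With only days 3 to 21 in that fit it was also called for day 21 against day 3 (1.75, adjusted p = 0.0319).

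Against baseline, a change of scaling shifts both RNAs by the same amount. On day 1 miR-685 was 7.05 relative to U6, 7.61 relative to snoRNA135 and 11.70 relative to Y1, and on day 3 it was 3.25, 2.60 and 5.69. On day 4 it was 0.20 relative to snoRNA135 and 2.67 in raw Ct, and on day 7 it was 1.5 relative to snoRNA135, 3.78 relative to Y1 and 3.87 in raw Ct. Counts of called miRNAs from day 3 to day 4 were 117 under the median miRNA, 50 under U6 and 65 under U87. From day 4 to day 7 they were 108, 40 and 55. Relative to U6 there were 74 from day 7 to day 21 against 153, and 101 for day 7 against day 3 against 152. Profiles were also compared by Pearson r over the 6 arm means, again with values beyond the limit of detection set to it. The 3 most like miR-680 were miR-467e, miR-467c and miR-467d (r of 0.97, 0.96 and 0.96). The 2 most like miR-685 were miR-200c and miR-223 (0.96 and 0.95). Values near Ct 35 limit the baseline and day 21 levels of miR-680.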
